A study of Gossypium hirsutum with 3 samples.

Results

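The cotton genes GhSCP, GhBM356400 and Contig5090, which encode serine protease-like proteins, were compared between 10 dpa fiber and 1 dpa fiber (dpa, days post anthesis). They are 3 of the 11143 gene models on the array and have 10 of its 40372 probes, each spotted once per array. They were chosen by their names in the array files and with their ratios already known, so their values are a description and no test is given for them. The study calls GhSCP a serine carboxypeptidase in its text and serine protease-like in its gene list, GhBM356400 serine protease-like, and Contig5090 similar to an Arabidopsis subtilisin-like serine protease. GhSCP and GhBM356400 were benchmark genes with known expression in young fiber, while Contig5090 is an assembly of the study's own expressed sequence tags.

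Serine proteases cut peptide bonds with an active-site serine. Subtilisin-like proteases of plants are endopeptidases that are made as precursors with an inhibitory propeptide, and many of them are secreted to the cell wall. Serine carboxypeptidases remove single residues from the carboxyl end of proteins, mostly in acidic compartments such as the vacuole, and some relatives act as acyltransferases instead. Cotton fibers are single cells of the ovule epidermis that first bulge out as fiber initials and then elongate.

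Both stages came from field grown Gossypium hirsutum, and the methods name the lines DES119 and ST4793R for the harvest without assigning them to arrays. The 10 dpa fiber, which is elongating, was dissected from ovules. The 1 dpa fiber, which represents fiber initials, was broken off frozen ovules of 50 bolls by vortexing with glass beads. Polyribosomal RNA of both stages was labelled and hybridized to the same array on each of 3 arrays, with the dyes exchanged on 1 of them, replicate 2. The replicate numbers were assigned here and carry no order. The array files code 2 RNAs of each stage, and replicates 1 and 3 share the 10 dpa code while replicates 1 and 2 share the 1 dpa code, although the methods describe biological replications from different harvest days, so the spread between arrays may in part be technical. Across genes the log2 ratios of replicates 2 and 3 correlated at 0.839, and those of replicate 1 correlated with them at 0.575 and 0.601, a description over genes that are not independent of each other. Median gene spots were between 234 and 357 intensity units in 10 dpa fiber and between 222 and 362 in 1 dpa fiber.

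Relative to that of 1 dpa fiber, polyribosomal RNA of 10 dpa fiber held 1.70-fold more GhSCP mRNA (1.97-fold without a probe that met the scanner ceiling). It held 2.20-fold less GhBM356400 mRNA and 4.80-fold less Contig5090 mRNA. The log2 ratio of 10 dpa to 1 dpa fiber, averaged over the probes of a gene and then over arrays, was 0.77 ± 0.23 for GhSCP, -1.14 ± 0.48 for GhBM356400 and -2.26 ± 0.52 for Contig5090 (SD, n = 3 arrays). Each of the 3 genes kept 1 sign on all 3 arrays. This was so for 2500 of all genes in the higher direction (22.4%) and for 2242 in the lower direction (20.1%). By mean ratio GhSCP ranked 669 from the highest of the 11143 genes, or 418 without the probe at the ceiling, GhBM356400 ranked 146 from the lowest and Contig5090 ranked 11 from the lowest. The median log2 ratio of all genes was -0.04.

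**Figure D1:**
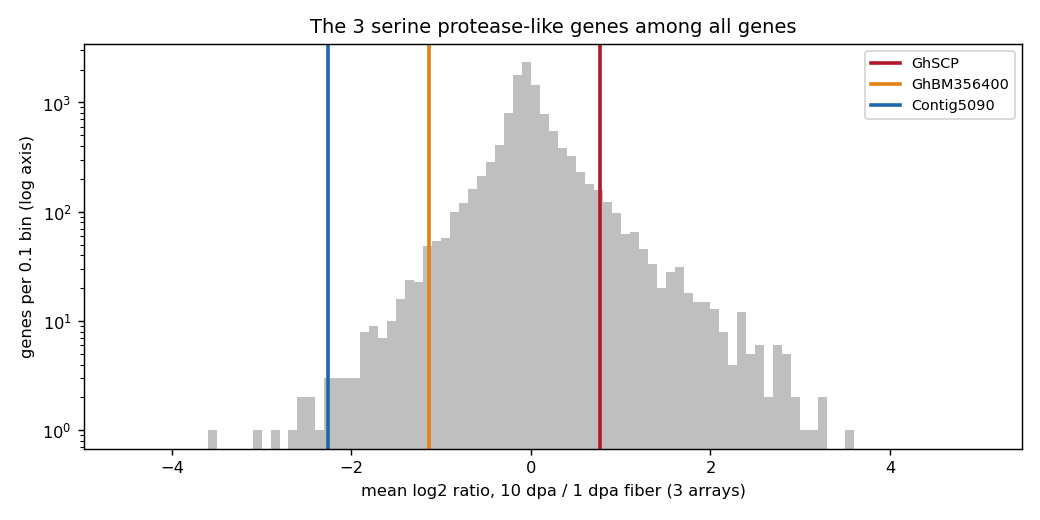
Histogram of the mean log2 ratio of 10 dpa over 1 dpa fiber for all 11143 genes (x axis, 3 arrays), with the number of genes per bin on a log axis (y axis) and a line for each of the 3 genes. GhSCP at 0.77 lies on the upper flank, GhBM356400 at -1.14 on the lower flank and Contig5090 at -2.26 in the far lower tail.

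The signals behind these ratios lay above background in both stages. All 10 probes exceeded the 95th percentile of all 314 negative controls in 10 dpa and in 1 dpa fiber on all 3 arrays. That percentile was between 71.2 and 133 intensity units for 10 dpa fiber and between 74.6 and 187 for 1 dpa fiber. Most gene spots exceeded it as well, from 81.2% to 92.2% by array and stage, so this does not set the members apart. The weakest of the member spots was probe 1 of Contig5090 in 10 dpa fiber on replicate 2, at 1.33 times its percentile. The strongest was probe 4 of GhSCP, which reached the upper limit of the scanner.

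The serine carboxypeptidase GhSCP had 3 probes, numbered 2, 3 and 4. Probe 2 of GhSCP had intensities of 4956, 4095 and 1731 in 10 dpa fiber on replicates 1, 2 and 3, against 1012, 3299 and 897 in 1 dpa fiber. For probe 3 the intensities were 14507, 6109 and 1922 in 10 dpa fiber, against 2845, 5620 and 1264 in 1 dpa fiber. Both probes were brighter in 10 dpa fiber on every array, by a wide margin on replicate 1 and by a small one on the dye swap before normalization. After normalization the log2 ratios of probe 2 were 1.81, 0.86 and 0.67, a mean of 1.11 ± 0.61 (SD, n = 3 arrays). Those of probe 3 were 1.51, 0.70 and 0.30, a mean of 0.84 ± 0.62. Replicate 1 gave the largest ratio with both probes.

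Probe 4 of GhSCP did not follow this order. Its intensities were 65143, 61393 and 65147 in 10 dpa fiber, against 34605, 65147 and 26320 in 1 dpa fiber. The 10 dpa spot was at the scanner ceiling (at least 99.9% of the highest value of its channel) on replicates 1 and 3, and the 1 dpa spot was at the ceiling on replicate 2, so that a ceiling was met each time in the Cy5 channel. The 10 dpa spot on replicate 2 was at 94.3% of the highest value of its channel. The ratio of intensities of 10 dpa over 1 dpa fiber of this probe is therefore a bound, at least 1.88 on replicate 1, at least 2.48 on replicate 3 and at most 0.942 on replicate 2, before normalization. Loess normalization, which centres the ratios at each intensity, changed its log2 ratio by -1.19, 0.67 and -0.59 on replicates 1, 2 and 3. The normalized log2 ratios were -0.27, 0.58 and 0.72, a mean of 0.35 ± 0.54. The value on replicate 1 was the only one of the 9 probe ratios of GhSCP below 0. Few gene spots met the ceiling at all, with 52, 20 and 26 of 42034 in 10 dpa fiber and 21, 34 and 5 in 1 dpa fiber on replicates 1, 2 and 3.

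For GhSCP as a gene the log2 ratios were 1.02, 0.72 and 0.57 on replicates 1, 2 and 3. Without probe 4 they were 1.66, 0.78 and 0.49, a mean of 0.98 ± 0.61, or 1.97-fold higher in 10 dpa fiber. The probe at the ceiling thus lowered the mean, and the SD over arrays was smaller with it (0.23) than for any single probe (0.54 to 0.62). Without probe 2 the mean was 0.59 ± 0.07, and without probe 3 it was 0.73 ± 0.04. With each array centred on its median instead of by loess, the mean was 1.00, from 1.78, 0.33 and 0.89 on replicates 1, 2 and 3. All of these values were above 0.

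The serine protease-like gene GhBM356400 was dimmer in 10 dpa fiber than in 1 dpa fiber with each of its 3 probes on each array. Probe 2 had intensities of 538, 236 and 267 in 10 dpa fiber on replicates 1, 2 and 3, against 910, 469 and 439 in 1 dpa fiber. Probe 3 had 454, 435 and 583 in 10 dpa fiber, against 1518, 980 and 1012 in 1 dpa fiber. For probe 4 the values were 655, 341 and 601 in 10 dpa fiber, against 1875, 818 and 887 in 1 dpa fiber. Across arrays and dyes, before normalization, the stages overlapped for probe 2. There the 10 dpa value of replicate 1 was above the 1 dpa values of replicates 2 and 3. Nothing is read from overlap at the other probes, since no share over all probes was computed. The normalized log2 ratios were -1.04, -0.73 and -0.86 for probe 2. They were -2.10, -0.82 and -1.02 for probe 3. Those of probe 4 were -1.93, -0.95 and -0.78. The difference was largest on replicate 1 for all 3 probes, and the probe means of -0.88 ± 0.16, -1.32 ± 0.69 and -1.22 ± 0.62 differed by less than the SDs of probes 3 and 4.

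As a gene GhBM356400 had log2 ratios of -1.69, -0.84 and -0.89 on replicates 1, 2 and 3. Replicate 1 thus gave a 3.23-fold lower level in 10 dpa fiber, while replicates 2 and 3 gave 1.78-fold and 1.85-fold. The mean was -0.86 without replicate 1, -1.29 without replicate 2 and -1.26 without replicate 3. Leaving out any single probe gave means between -1.27 and -1.05.

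The subtilisin-like gene Contig5090 had the largest difference between stages of the 3 genes. Its 4 probes all carry the prefix a1_ in the array files, a mark whose meaning is not given in the sources used here. Probe 3 of Contig5090 had intensities of 1617, 640 and 1275 in 10 dpa fiber on replicates 1, 2 and 3, against 8899, 7551 and 4032 in 1 dpa fiber. Probe 4 had 1230, 486 and 990 in 10 dpa fiber, against 5997, 5719 and 2652 in 1 dpa fiber. Both probes were dimmer in 10 dpa fiber on each array. These are intensities before normalization. Probes without overlap of the stages across arrays and dyes are not counted, since no share over all probes was computed. Probe 2 gave 2114, 573 and 878 in 10 dpa fiber, against 5585, 3483 and 2044 in 1 dpa fiber, and here the 10 dpa value of replicate 1 was above the 1 dpa value of replicate 3. The dimmest probe, probe 1, gave 273, 126 and 184 in 10 dpa fiber, against 606, 784 and 481 in 1 dpa fiber.

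**Figure D2:**
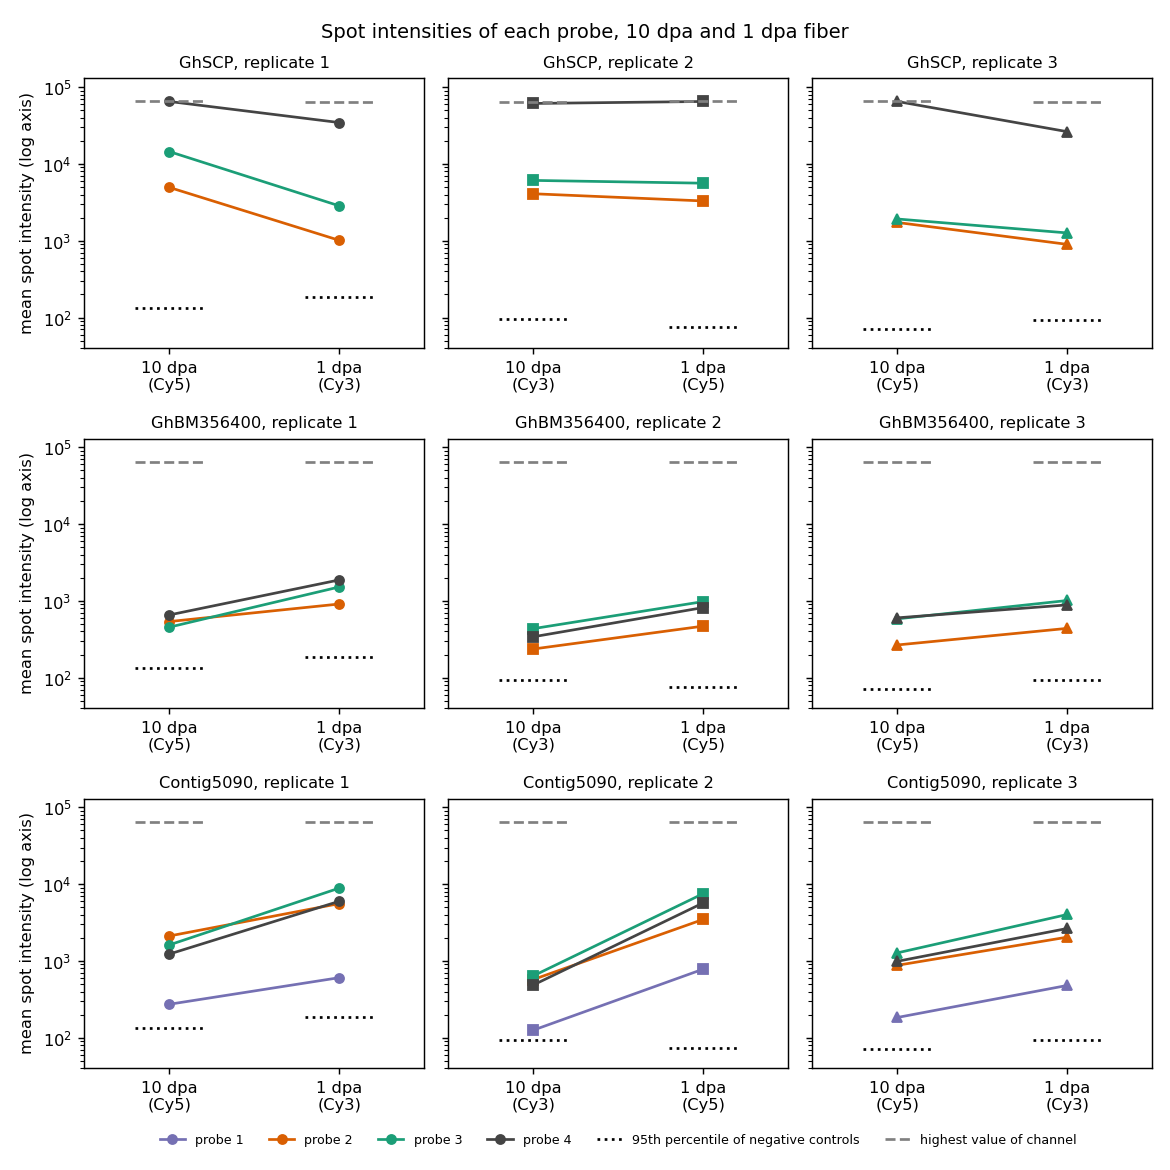
Mean spot intensity on a log axis (y axis) of each probe of GhSCP, GhBM356400 and Contig5090 (rows) on replicates 1, 2 and 3 (columns), with 10 dpa fiber on the left and 1 dpa fiber on the right of each panel and the dye named below. Lines join the stages of a probe, dotted lines mark the 95th percentile of negative controls and dashed lines the highest value of the channel. Probe 4 of GhSCP sits at the dashed line in the Cy5 channel of each array, and all lines of GhBM356400 and Contig5090 run lower in 10 dpa fiber.

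Normalized log2 ratios of Contig5090 were below 0 for all 12 pairs of probe and array. They were -3.20, -3.09 and -2.01 for probe 3 on replicates 1, 2 and 3. For probe 4 they were -2.93, -3.11 and -1.74. Probes 1 and 2 gave smaller differences on every array, with means of -1.76 ± 0.65 and -1.93 ± 0.36, against -2.77 ± 0.66 and -2.59 ± 0.75 for probes 3 and 4 (SD, n = 3 arrays). As folds, the 10 dpa level was 3.39-fold and 3.81-fold lower by probes 1 and 2, and 6.80-fold and 6.04-fold lower by probes 3 and 4. In these normalized values the probes thus differed in the size of the change but not in its direction. The order of sizes depended in part on the processing. With plain background subtraction and no loess, replicate 3 gave -1.62 for probe 1 and -1.46 for probe 4. Which stretch of the transcript each probe reads was not analysed here.

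At the gene level Contig5090 had log2 ratios of -2.38, -2.72 and -1.69. The corresponding folds were 5.20-fold, 6.57-fold and 3.24-fold lower in 10 dpa fiber on replicates 1, 2 and 3. Replicate 2, the dye swap, gave the largest difference and replicate 3 the smallest. The mean was -2.20 without replicate 1, -2.04 without replicate 2 and -2.55 without replicate 3, and leaving out any single probe gave means between -2.43 and -2.09.

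**Figure D3:**
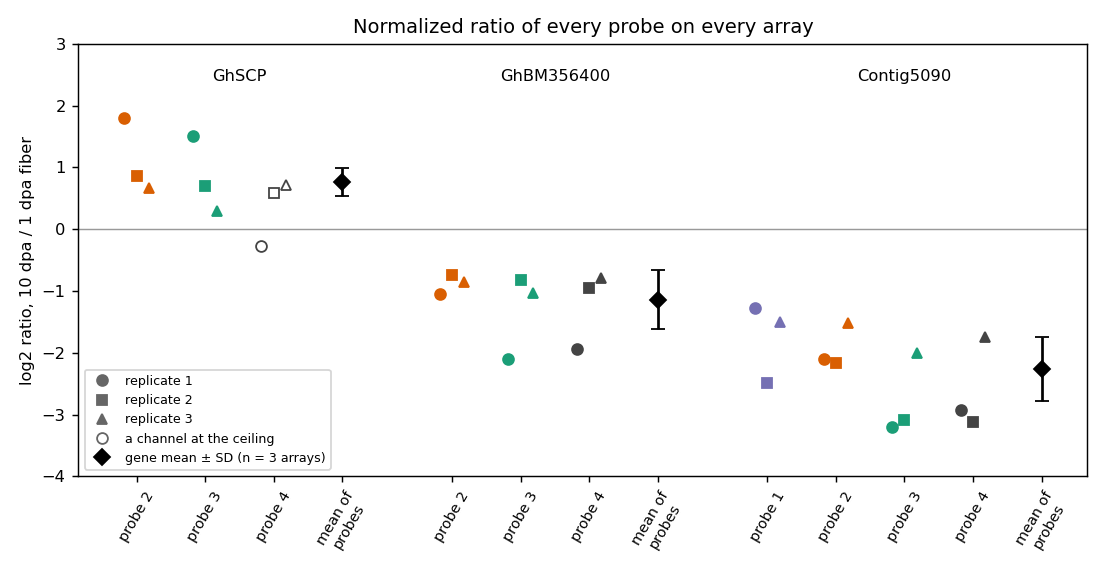
Normalized log2 ratio of 10 dpa over 1 dpa fiber (y axis) for every probe of the 3 genes on replicates 1, 2 and 3 (symbols), with the gene mean ± SD over 3 arrays as black diamonds. Open symbols mark a channel at the scanner ceiling. The 9 ratios of GhBM356400 and the 12 of Contig5090 are below 0, and 8 of the 9 of GhSCP are above 0.

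The probes of GhSCP and Contig5090 differed more among themselves than those of GhBM356400. The SD between the probes of a gene, averaged over arrays, was 0.50 for GhSCP, 0.27 for GhBM356400 and 0.52 for Contig5090, on the log2 ratio scale. Its median over the 10312 genes with different probes was 0.262. GhBM356400 was near that median, with 51.5% of these genes having a smaller spread, while 91.0% had a smaller spread than GhSCP and 92.5% a smaller one than Contig5090. For GhSCP the SD between probes was 1.12 on replicate 1, against 0.14 and 0.23 on replicates 2 and 3. Without probe 4, which is at the ceiling, the average for GhSCP was 0.19, with 26.1% of genes having a smaller spread. The SD between arrays was 0.229 in the median gene. It was smaller than that of GhSCP in 50.1% of genes, than that of GhBM356400 in 88.2% and than that of Contig5090 in 90.6%. Without probe 4 the SD between arrays of GhSCP was 0.61, above those of GhBM356400 (0.48) and Contig5090 (0.52).

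When each channel was normalized to a level of its own (log2 intensity after loess and quantile normalization of the mean intensities), the stages overlapped for GhSCP and not for the other genes. Levels of GhSCP were 13.13, 13.87 and 12.69 in 10 dpa fiber on replicates 1, 2 and 3, against 12.12, 13.15 and 12.12 in 1 dpa fiber. Both stages were high on replicate 2, where 1 dpa fiber, at 13.15, was above the 10 dpa fiber of replicates 1 and 3. The margin over replicate 1 was small, against 13.13. These levels of GhSCP include its probe that met the scanner ceiling. The values at the ceiling were those of 10 dpa fiber on replicates 1 and 3, and of 1 dpa fiber on replicate 2. The part of that probe in the overlap was not tested. The log2 levels of GhBM356400 were 8.56, 8.44 and 9.05 in 10 dpa fiber, against 10.25, 9.28 and 9.93 in 1 dpa fiber. For Contig5090 the log2 levels were 9.27, 8.77 and 9.63 in 10 dpa fiber, against 11.65, 11.48 and 11.33 in 1 dpa fiber. The mean level of Contig5090 was 11.49 ± 0.16 in 1 dpa fiber and 9.22 ± 0.43 in 10 dpa fiber (SD, n = 3 arrays). For GhBM356400 the larger SD was that of 1 dpa fiber, 0.50 against 0.32 in 10 dpa fiber. Because the files code 2 RNAs of each stage, these SDs may in part be technical. Of all genes, 10.7% were lower in 10 dpa fiber without overlap, as GhBM356400 and Contig5090 were, and 12.1% were higher without overlap. These shares are given beside ratios that had chosen the genes, and nothing is read from them. Levels of different genes come from different probes and were not compared. In RNA of a tissue sample, fewer cells with a transcript and less transcript in each cell cannot be told apart. Nor can the amount of a transcript and its share on polyribosomes, from which the methods took the RNA. The stages were also collected in different ways, so stage and collection cannot be told apart.

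Other peptidase genes described in the study's list moved in both directions. Over all 11143 genes, 8.03% were higher and 5.61% lower in 10 dpa fiber past the threshold. The threshold was an adjusted p of 0.05 by limma, a linear model test that shares the spread between genes (n = 3 arrays). The test treats the arrays as independent, although their files code 2 RNAs of each stage, so its p-values may be too small. Of 16 peptidase and peptidase inhibitor genes other than GhSCP, GhBM356400 and Contig5090, 5 were higher, 6 were lower and 5 did not pass. Their median log2 ratio was -0.30, against -0.04 for all genes. The study's list was made of genes that changed in its comparison of these stages or of 1 dpa fiber with ovules, so neither their share of changed genes nor their direction is independent evidence. With scaling of the ratios between arrays, or an F-test for each gene alone, 0 of the 16 genes passed the adjusted p (11 and 10 at an unadjusted p of 0.05 by limma and the F-test, against 12 by limma as reported).

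Both other serine carboxypeptidase-like genes in the study's list were higher in 10 dpa fiber, the direction of GhSCP. Genes outside that list have no description here, so others of these families on the array could not be looked for. Contig1846 had log2 ratios of 1.38, 1.79 and 1.80 on replicates 1, 2 and 3 and was 3.15-fold higher (mean 1.66 ± 0.24, adjusted p = 0.00160 from limma). Contig13796, a carboxypeptidase precursor-like gene, had 1.95, 2.15 and 1.05 and was 3.29-fold higher (mean 1.72 ± 0.58, adjusted p = 0.00614 from limma, and 0.141 with the channels as single samples). Both ratios exceeded that of GhSCP on every array, except that Contig1846 was below the 1.66 that GhSCP had on replicate 1 without the probe at the ceiling. The other listed subtilisin-like gene, Contig1676 of the ARA12 type, was 2.54-fold lower in 10 dpa fiber, with -0.56, -1.93 and -1.55 (mean -1.34 ± 0.71, adjusted p = 0.0219 from limma). Contig5090 was lower than Contig1676 on each array. The 3 carboxypeptidase-like genes named here were all above 0 and the 2 subtilisin-like genes all below 0 on each of the 3 arrays. Of all genes, 22.4% were higher and 20.1% lower on all 3 arrays. The genes counted were chosen with these ratios known or come from the study's list of changed genes. Their shared sign is therefore no evidence about either family.

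Among the remaining serine peptidases, the LON protease Contig5013, of an ATP-dependent family that degrades proteins in mitochondria and other organelles, was 3.87-fold higher in 10 dpa fiber (log2 ratio 1.95 ± 0.62, adjusted p = 0.00462 from limma). An oligopeptidase B, an enzyme that cuts short peptides after basic residues, had log2 ratios of 0.09, -0.56 and -0.77 and did not pass (mean -0.41 ± 0.45, adjusted p = 0.252 from limma). Without replicate 1 its mean was -0.67 and passed. The protease inhibitor-like gene Contig3452 was 4.54-fold lower in 10 dpa fiber, with -1.50, -2.68 and -2.37 (mean -2.18 ± 0.61, adjusted p = 0.00317 from limma). Its mean was thus close to that of Contig5090, with the most negative value also on replicate 2.

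**Figure D4:**
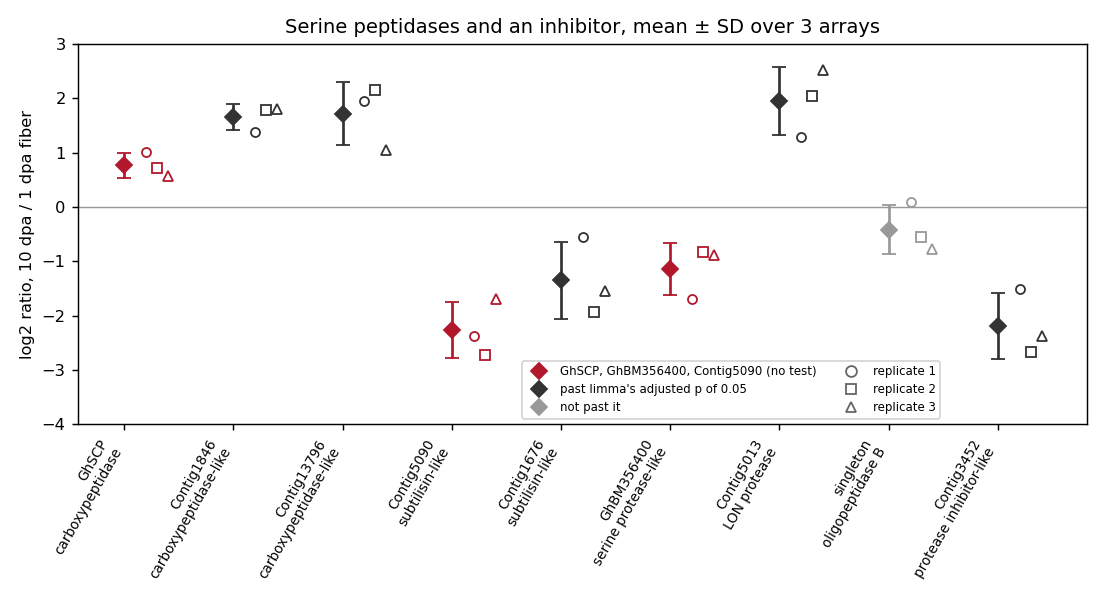
Log2 ratio of 10 dpa over 1 dpa fiber (y axis) for GhSCP, GhBM356400 and Contig5090 (red, not tested), the other described serine peptidases and a protease inhibitor-like gene, as mean ± SD over 3 arrays (diamonds) with each array beside it. The 3 carboxypeptidase-like genes lie above 0 and the 2 subtilisin-like genes below 0 on every array. These genes were chosen with their ratios known or come from the study's list of changed genes.

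Peptidases of other classes were also split. Of 3 cysteine peptidases, a cysteine endopeptidase (Contig16180) was 3.61-fold higher in 10 dpa fiber (log2 ratio 1.85 ± 0.27) and a type II metacaspase (Contig14433) was 2.09-fold higher (1.07 ± 0.16). A papain-like gene (Contig14371) had 0.07 and did not pass. Of 3 proteasome genes, which encode parts of the complex that degrades ubiquitin-tagged proteins, the beta subunit Contig16644 was 1.88-fold lower (log2 ratio -0.91 ± 0.13, a call that ended with median centring) and Contig3834 was 1.44-fold lower (-0.53 ± 0.18). The call of Contig3834 was at the edge of the threshold (adjusted p = 0.0478 from limma) and ended in several alternatives, and Contig15225 had -0.19 and did not pass. Both metallopeptidases were lower, a mitochondrial processing peptidase (TMIRS_064_G08.F) by 2.70-fold and a weakly matched peptidyl-dipeptidase (TMIRS_112_A01.F) by 2.41-fold. The ubiquitin-specific protease Contig11266, which removes ubiquitin from proteins, had 0.20 and did not pass, nor did a weakly matched gene at -0.44 (Contig5752).

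Ubiquitin genes mark proteins for the proteasome, and F-box and RING finger proteins are parts of the ligases that attach ubiquitin. Of 13 such genes in the study's list, 5 were higher, 5 were lower and 3 did not pass in 10 dpa fiber, with a median log2 ratio of 0.38, beside 8.03% of all genes higher and 5.61% lower. The largest rises were those of a ubiquitin gene (TMIRS_222_G06.F, 7.29-fold) and the F-box genes Contig1569 (2.42-fold) and Contig15675 (2.41-fold). The largest falls were those of the RING finger gene Contig14203 (3.53-fold), a ubiquitin fused to a ribosomal protein (TMIRS_097_A01.F, 2.93-fold) and the F-box gene Contig9718 (2.32-fold, a call that ended with the median of probes). These genes come from the same list, chosen on the study's own arrays, and 0 of the 13 passed with scaling between arrays or with the F-test (10 and 7 unadjusted, against 11 by limma as reported).

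Fiber markers were above the negative controls in both stages. Of all gene spots, 81.2% to 92.2% passed this limit, depending on array and stage, so passing is not particular to fiber genes. All 6 benchmark genes of young fiber (the genes of MYB2, MYB109, a FIDDLEHEAD homolog, an acyltransferase, an RD22-like protein and a tubulin) were above the negative controls with 9 of 9 spots in 10 dpa and in 1 dpa fiber. In 10 dpa fiber the tubulin gene GhBM356393 was 6.30-fold higher and the RD22-like gene GhRDL 1.77-fold higher, the FIDDLEHEAD homolog GhFDH was 1.80-fold lower (adjusted p = 0.000685, 0.0146 and 0.0266 from limma), and the other 3 did not pass. The single gene described with a green tissue function, a weakly matched photosystem I chain (Contig1440), was 4.69-fold higher in 10 dpa fiber (log2 ratio 2.23 ± 0.53, adjusted p = 0.00215 from limma), with 12 of 12 spots above the negative controls in both stages. It moved in the direction of GhSCP and against that of GhBM356400 and Contig5090, and its part in their ratios was not tested.

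The genes with ratios most like those of the 3 genes were sought among 799 other genes with a described match, by Euclidean distance between log2 ratios over the 3 arrays. Nearest to GhSCP were a singleton similar to a pollen-specific protein precursor (distance 0.0826, with ratios of 1.08, 0.74 and 0.62 on replicates 1, 2 and 3), a clathrin coat assembly gene (Contig16803, 0.205) and a GTP-binding protein gene (Contig1872, 0.214). These neighbours depended on the probe of GhSCP at the ceiling, since without it they ranked 38, 32 and 33 in distance, and the nearest named Contig was a GDP-fucose synthetase-like gene (Contig14846, 0.199), ranked 3 behind a pair of singletons. Nearest to GhBM356400 were a GNS1/SUR4 membrane family gene (Contig3233, 0.156), a gene similar to a yeast mitochondrial ribosomal protein (TMIRS_103_E11.F, 0.254) and a gene of unknown function (Contig16020, 0.277). Contig5090, which ranked 11 from the lowest of all genes, where few genes lie, had no neighbour as close. Its nearest were a nucleolar protein gene (Contig3157, 0.741), a CER1-like gene (TMIRS_036_H05.F, 0.744) and a cytochrome P450-like gene (Contig1998, 0.803). These distances are over 3 arrays only and compare ratios, not levels. They use the ratios known when the 3 genes were chosen, and the 799 genes come from the study's list, so they are a description only.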

How the data were processed

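The members and gene lists were chosen with earlier results of these data known. Labelled cDNA of 10 dpa fiber and 1 dpa fiber was measured on 3 custom 2-colour Agilent arrays with 1 dye swap, while arrays with cDNA of ovules were left out as not analysed here. The authors' scanner files give, per channel and on a linear scale, mean intensities of spots and of their local backgrounds, from Agilent Feature Extraction, without background subtraction or dye normalization. A deposited table holds log2 ratios of red over green after background subtraction, with medians of -0.210, 0.172 and -0.0277, not centred and with the dye swap not turned. Because no probe column matches its identifiers, it served only as a check of scale and direction. The labels name total RNA, while their protocol and the methods name polyribosomal RNA.

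Intensities were corrected with normexp (offset 50), and ratios were normalized by loess within arrays with the 2256 control spots at weight 0. Spots were averaged to probes and probes to genes (42034, 40372 and 11143), and ratios were turned to 10 dpa over 1 dpa fiber. Limma's lmFit and eBayes tested each gene against 0 with Benjamini-Hochberg adjustment over all genes and a threshold of 0.05, with both stages of an array paired. The study's ANOVA, which needs the arrays with ovules, was not run here. The procedure was run on simulated data with independent noise on each array and no scanner ceiling, so shared RNAs and clipped spots were not covered. With 3 arrays the number of arrays limits the precision, and no counting depth exists for intensities.

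Genes were named by rule. These were GhSCP, GhBM356400 and Contig5090, each listed peptidase past the threshold, every listed serine peptidase and the inhibitor, up to 3 ubiquitin genes in each direction, and the 3 described genes nearest to each of the 3 genes. Descriptions came from the study's gene list and were called weak at expect values above 1e-05. The genes Contig14371, Contig15225, Contig11266 and Contig5752 were named after their values were seen, to complete the list. Alternatives were a dye term, single channels, the median of probes, no background correction, plain subtraction, a filter on dim probes, median centring, scaling of ratios across arrays, leaving out each array, and an F-test for each gene alone. Leaving out each probe was added after seeing the data, and Contig14846 and the changed fiber markers were named after it. The work ran in R 4.3.3 with limma 3.58.1 and jsonlite 2.0.0.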

Additional observations from a re-analysis of the deposited data

How the results depend on the processing

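The ratios of GhSCP, GhBM356400 and Contig5090 kept their direction in every alternative run. The filter on dim probes, single channels and the choice of probes by name prefix returned the reported ratios unchanged. Those settings therefore add no support. GhSCP lay between 0.59 and 1.00 over 15 alternatives, GhBM356400 between -1.29 and -0.86 over 15 and Contig5090 between -2.55 and -2.04 over 16, on the log2 scale. Only the value of 1.00 for GhSCP, with median centring in place of loess, moved by more than the SD between arrays. Leaving out an array gave 0.64 to 0.87 for GhSCP.

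Counts of called genes depended on the setting. Over all genes, 895 were higher and 625 lower in 10 dpa fiber, 512 and 191 with median centring and 547 and 402 with single channels without the array as a block. Without 1 replicate the lower count was 447 to 1212, the highest being without replicate 1. Scaling between arrays gave 0 genes in each direction, and 0 in the peptidase and in the ubiquitin list (2699, 11 and 10 at an unadjusted p under 0.05 from limma). The F-test for each gene alone also gave 0 in all of these (1811, 10 and 7 unadjusted), against 2773, 12 and 11 unadjusted from limma in the fit reported. The ubiquitin list had 3 higher and 3 lower genes with median centring, and 3 lower genes with the median of probes and with single channels. Besides scaling and the F-test, the call of Contig3834 ended with plain subtraction, median centring, the median of probes, the filter on dim probes, a dye term, single channels, and without replicate 2 or 3. That of Contig16644 ended with median centring, that of Contig13796 with single channels and that of Contig9718 with the median of probes. The causes were not tested. No paired analysis by replicate number was possible because the labels give none, and both stages already lie on each array. The alternative with processed scanner signals was not run here, and those that use probes by name prefix leave each of the 3 genes with all of its probes or none. The scanner ceiling limits probe 4 of GhSCP to bounds.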
